A study of Mus musculus with 4 samples.

Results

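The protein-coding genes of the cytosolic ribosome were described in RNA from mouse pancreatic islets. Members were the protein-coding rows of the deposited table whose symbol is Rpl, Rps or Rplp with a number and at most a short suffix, or Rpsa, with a value of 10 or more in at least 2 of the 4 libraries. This gave 77 genes of 55487 rows in the table and of 16589 that were tested. All 77 rows with such a symbol passed the filter on low values. Of these, 46 encode proteins of the large (60S) subunit and 31 proteins of the small (40S) subunit. The rule used symbols and a minimum level only, and no difference between genotypes.

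The RNA was enriched for poly(A) and came from fresh islets of C57BL/6 mice aged 30 weeks. The 2 control libraries were from Ggcx flox/flox mice, in which both alleles carry loxP sites and no Cre is named, and the 2 knockout libraries were from mice of genotype Ggcx flox/flox; Pdx1-Cre. Ggcx encodes the enzyme that carboxylates glutamate residues of proteins with vitamin K as cofactor, and Pdx1-Cre is active in the pancreatic lineage, which gives rise to acinar and duct cells as well as islet cells. A library stands for islets of 2 mice combined before extraction, which leaves n = 2 pools for each genotype, and no library had Cre without the floxed alleles, so the transgene and the loss of Ggcx cannot be told apart. Ggcx stood at normalized counts of 3971 and 3981 in the controls and 234.2 and 643.4 in the knockouts. Libraries held 47624630 to 51756221 reads assigned to genes. The control libraries are called control column 2 and control column 3 after the table, since their numbers do not match those of the labels. The summed count of 15 islet hormone and islet cell genes was 12339100 to 13262000 per library, and none of the 15 was at 0.

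The eukaryotic ribosome is built from ribosomal RNAs and one copy of most ribosomal proteins, so the genes for these proteins are known for being transcribed at high and similar rates in every tissue, islets included. Their mRNAs are short, and most start with a cytosine followed by an unbroken run of pyrimidines. This terminal oligopyrimidine (TOP) start is bound by the La-related protein Larp1 and places translation of these mRNAs under control of the kinase complex mTORC1. Insulin-producing beta cells translate a few secretory mRNAs at very high rates and depend on this machinery.

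The start regions of 6 members are shown because pyrimidine runs near the start are what the family is known for, and because Rpl35, Rpl5, Rpl4 and Rps10 return below at the ends of the orders of fold change and level. Sequences are from RefSeq on GRCm38.p6, from 60 bases before the annotated start to 10 bases from it onward, written 5′ to 3′ on the gene's own strand, with each CTTTC in capitals. All 6 were taken from a list of 14 members with CTTTC in this window. The list need not hold every such member, since not every entry and not all of the window was searched for it. In Rpl35, Rplp2, Rps10 and Rps27 a run lies within a few bases of the annotated start, whereas in Rpl5 and Rpl4 it begins 18 and 17 bases before it.
Rpl35, chr2:39005122-39005191, minus strand: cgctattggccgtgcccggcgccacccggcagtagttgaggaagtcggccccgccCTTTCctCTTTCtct
Rpl5, chr5:107900468-107900537, plus strand: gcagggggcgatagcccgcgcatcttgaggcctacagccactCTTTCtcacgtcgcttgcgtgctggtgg
Rpl4, chr9:64173327-64173396, plus strand: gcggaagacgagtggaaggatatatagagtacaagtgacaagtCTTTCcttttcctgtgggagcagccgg
Rplp2, chr7:141447591-141447660, plus strand: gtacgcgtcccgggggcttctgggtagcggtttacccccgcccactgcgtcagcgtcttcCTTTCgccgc
Rps10, chr17:27635235-27635304, minus strand: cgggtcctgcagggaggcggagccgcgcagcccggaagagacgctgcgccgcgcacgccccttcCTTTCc
Rps27, chr3:90213639-90213708, minus strand: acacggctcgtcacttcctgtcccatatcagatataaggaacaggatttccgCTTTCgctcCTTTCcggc

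RefSeq promoter entries were matched for 57 of the 77 members by symbol. CTTTC on the gene's strand, within 30 bases of the start on either side, was present in 21 of these (36.8%) and in 9.18% of all 27025 genes with an entry. CGGAAG, the core bound by GABP and other ETS factors, was searched on both strands of the whole 300-base entry. It was found in 40 members (70.2%) and in 18.8% of all genes. ATGGCG, the core of the YY1 motif, was present on either strand in 16 members (28.1%) and in 10.2% of all genes. TATAAA within 50 bases of the start was present in 4 members (7.02%) and 4.05% of all genes, and the E-box CACGTG in 6 members (10.5%) and 8.09%. TATAAA was searched on the gene's strand, and CACGTG reads the same on both. The searched motifs can share end bases, as CTTTC with CTTCCG, the other strand of CGGAAG, or ATGGCG with CGGAAG. These matches describe letters only, and the annotated start can lie some bases from the start used in islets.

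The 77 members made up 1.21% and 1.17% of all reads in control columns 2 and 3, and 1.27% and 1.32% in knockout replicates 1 and 2. Both knockout libraries were above both control libraries. Control libraries averaged a share of 1.19% ± 0.0332 and knockout libraries one of 1.29% ± 0.0380 (± SD over 2 pools), a ratio of 1.09. With 2 pools against 2, an exact permutation test could not go below p = 0.333 (two-sided), and it gave that value. Insulin and glucagon mRNAs take a large part of islet reads, and with Ins1, Ins2 and Gcg left out of the total the shares were 1.54%, 1.47%, 1.63% and 1.70% in the same order, a ratio of 1.10. In bulk RNA, fewer cells of a type and less RNA per cell cannot be told apart.

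Members of both subunits were higher in knockout islets by about the same small amount, and no single gene passed the threshold. Fold changes compare knockout with control islets as differences of log2(normalized count + 1), with standard errors, from a limma fit over all tested genes with Benjamini-Hochberg adjustment at 0.05. None of the 77 was called higher, against a background of 0.247% of tested genes (41), and none lower, against 0.374% (62). The lowest limma adjusted p was 0.110, for Rpl37a. All 77 fold changes were above 0, where 50.1% of all tested genes were. At an unadjusted limma p under 0.05, 52 of the 77 were higher, where 6.74% of all tested genes were. That count was 14 without control column 3, 8 without knockout replicate 2 and 3 in limma without the trend. The median log2 fold change was 0.13, or 1.10-fold, with a range from 0.04 to 0.23, beside a median of 0.00 over all tested genes. A typical member's standard error was 0.05. edgeR's quasi-likelihood test on the recovered reads called 0 members (background 0.344% higher and 0.428% lower), and so did DESeq2 (background 0.943% higher and 1.63% lower). In the authors' deposited table, 0 of the 77 had an adjusted p under 0.05 and 36 had an unadjusted p under 0.05, and 0.83% of its genes with an adjusted p were called higher in knockout islets.

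The size of the difference between genotypes has to be set beside the difference within them. Both knockout libraries were above both control libraries in 71 of the 77 members, where 22% of tested genes showed this pattern and 23% its opposite. The exceptions were Rps20, Rpl3, Rpl10a, Rpl39, Rpl29 and Rpl24. In 65 members the libraries stood in one order, with control column 3 lowest, then control column 2, then knockout replicate 1, and knockout replicate 2 highest. That order occurred in 6.29% of tested genes. The median member differed by 0.07 (log2) between the 2 controls, by 0.07 between the 2 knockouts, and by 0.07 between control column 2 and knockout replicate 1, the nearest libraries of the 2 genotypes. The gap between genotypes at their nearest libraries was about the same size as the gaps within genotypes, at 0.0709 beside 0.0694 between the controls and 0.0671 between the knockouts, and the members moved between libraries as one block. Since they move together, the 77 are not independent measures of the genotype, and n is 2 pools per genotype for the block as for 1 gene.

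**Figure D1:**
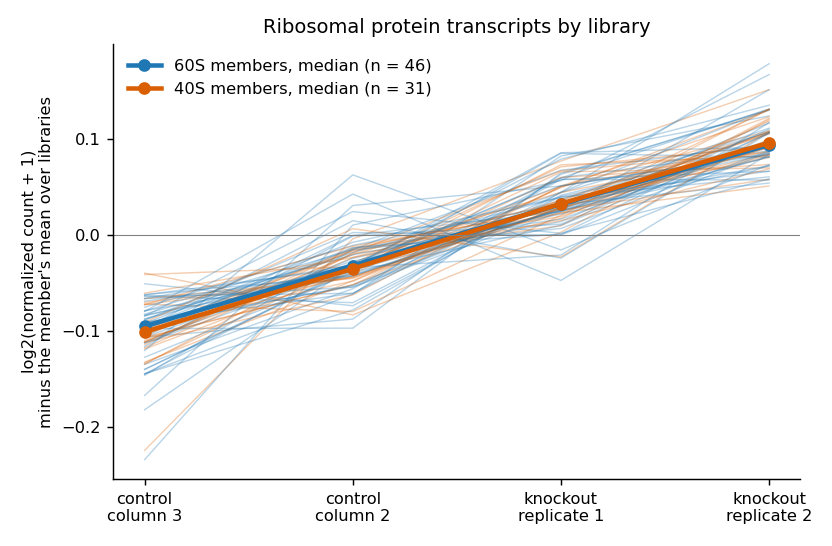
Each thin line is 1 of the 77 members, plotted as log2(normalized count + 1) minus its own mean over the 4 libraries (y axis), with libraries on the x axis placed in the order of the members' medians and thick lines for the subunit medians. The median deviation goes from -0.10 in control column 3 and -0.03 in control column 2 to 0.03 in knockout replicate 1 and 0.09 in knockout replicate 2, and the 60S and 40S lines lie on each other.

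The subunits kept their proportion in every library. The 46 genes of the 60S subunit took 0.710% and 0.683% of reads in control columns 2 and 3 and 0.741% and 0.772% in knockout replicates 1 and 2. The 31 genes of the 40S subunit took 0.504%, 0.484%, 0.527% and 0.549% in the same order. The 60S sum divided by the 40S sum was 1.408, 1.411, 1.406 and 1.408, so its spread over the 4 libraries was far smaller than the change in either sum. The median log2 fold change was 0.12 for the 60S members and 0.14 for the 40S members.

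The 6 members with the highest fold changes are named by the rule for single genes. Rps29 (chr12:69157722-69159186, minus strand, GRCm38) encodes a small zinc-binding protein of the 40S head. Its normalized count was 3097 and 2658 in control columns 2 and 3 and 3276 and 3450 in knockout replicates 1 and 2. The groups did not overlap, but the controls lay farther apart than the knockouts, and the log2 fold change was 0.23 ± 0.07 (limma adjusted p 0.204). Rpl36a (chrX:134585654-134588062, plus strand), a 60S protein near the exit site for transfer RNA, stood at 1938, 1636, 2001 and 2161, and again control column 3 was well below the rest. Its log2 fold change was 0.22 ± 0.08 (limma adjusted p 0.273).

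Rpl35 (chr2:39001580-39005624, minus strand), which lies at the mouth of the peptide exit tunnel and whose start region has 2 CTTTC runs, stood at 2503 and 2391 in controls and 2726 and 2992 in knockouts. Its log2 fold change was 0.22 ± 0.06 (limma adjusted p 0.141). Rpl5 (chr5:107900502-107909005, plus strand), which binds 5S ribosomal RNA and, when free of the ribosome, Mdm2, stood at 5237 and 4719 in controls and 5657 and 5882 in knockouts. Both genes had all knockout values above all control values, and for Rpl5 the log2 fold change was 0.21 ± 0.06 (limma adjusted p 0.143). Rpl31 (chr1:39367842-39371911, plus strand), another protein at the tunnel's exit, stood at 3610 and 3408 in controls and 3989 and 4107 in knockouts, and differed by 0.21 ± 0.05 on the log2 scale (limma adjusted p 0.116). Rpl37a (chr1:72711290-72713813, plus strand), a zinc-binding 60S protein, stood at 5365 and 5364 in controls and 6002 and 6282 in knockouts. Its controls agreed most closely of these 6 genes, and its log2 fold change was 0.19 ± 0.05 (limma adjusted p 0.110).

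Without control column 2, 3 members passed the threshold in limma: Rpl5 at 0.29 ± 0.06 (adjusted p 0.0351), Rps29 at 0.34 ± 0.06 (adjusted p 0.0291) and Rpl36a at 0.35 ± 0.07 (adjusted p 0.0400). In that fit 1.25% of tested genes were called higher, and the lone control library is assumed to vary like the knockouts. At the other end, Rpl29, chosen after its values were seen, is a 60S protein with values of 2878 and 2644 in controls and 2704 and 2963 in knockouts. These overlap, and the log2 fold change was 0.04 ± 0.07 (limma adjusted p 0.858).

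**Figure D2:**
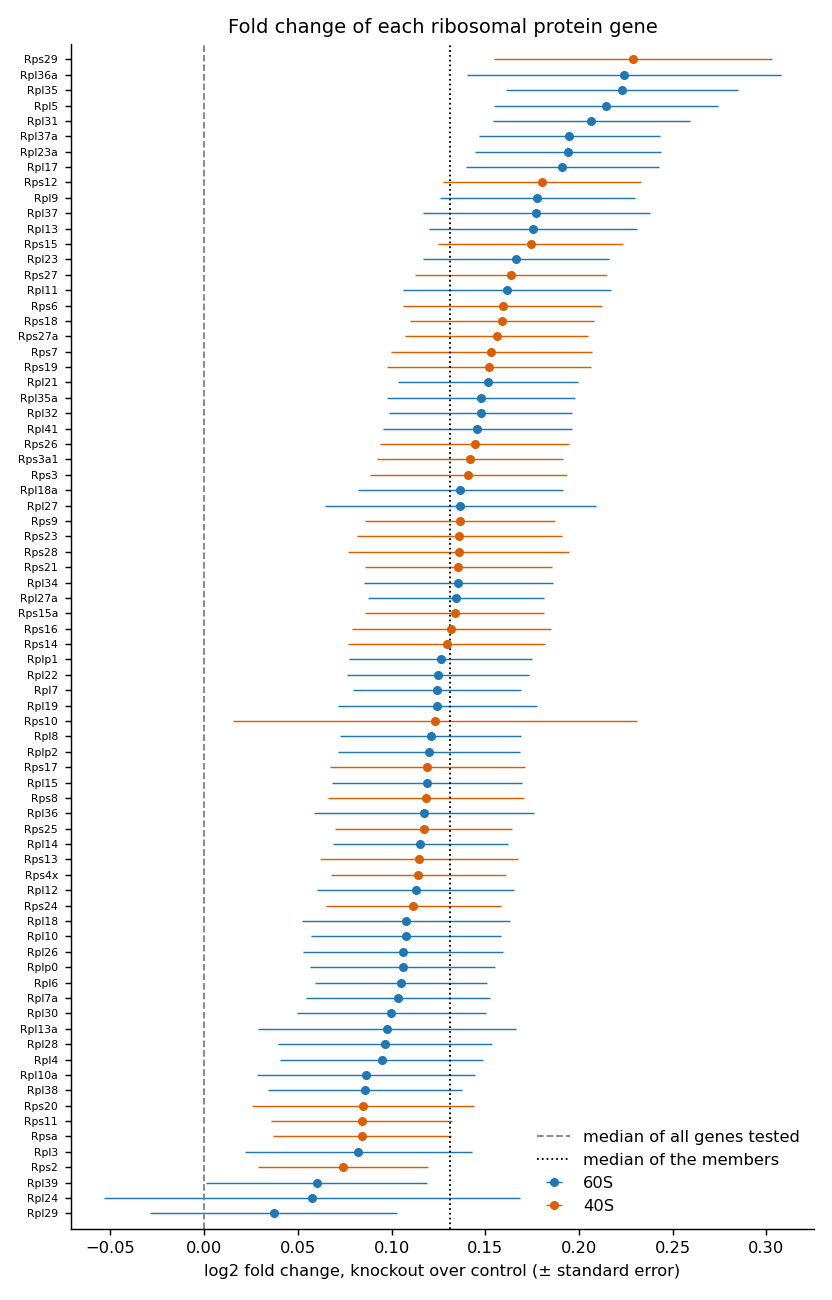
Each point is the log2 fold change of 1 member, knockout over control, with its limma standard error (n = 2 pools per genotype), ordered by size and coloured by subunit, with 1 member not shown. The points lie to the right of 0, from 0.04 for Rpl29 to 0.23 for Rps29, around a median of 0.13, and no member passed the threshold.

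No difference among the members was called when the libraries were scaled to them. The 4 libraries were scaled so that the members' geometric mean was equal in each. Fold changes then ran from -0.10 for Rpl29 to 0.10 for Rps29. Their SD over members was 0.04, and the median standard error of a member was 0.08. None was called in limma, none had an unadjusted p under 0.05, and the lowest adjusted p was 0.433. Errors in limma also draw on other genes of similar level, and this scaling moved the members' shared shift onto all other genes. The median standard error was 0.05 before the scaling, so 0.08 is not the members' own error. With errors of that size calls were unlikely, so their absence does not show equal changes. With that scaling 0.645% of tested genes were called higher and 4.89% lower, and the median of all genes stood at -0.13. Of the 77 members, 66 lay within 1 standard error of the members' median before that scaling. Those errors include the shift that members share between libraries, so this count does not show equal changes either.

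Differences between the functional regions of the ribosome were not tested, and their medians ran from 0.12 to 0.19. The P stalk recruits the elongation factors, and its members Rplp0 (0.11 ± 0.05), Rplp1 (0.13 ± 0.05), Rplp2 (0.12 ± 0.05) and Rpl12 (0.11 ± 0.05) had a median log2 fold change of 0.12. The proteins that carry 5S ribosomal RNA, Rpl5 and Rpl11 (0.16 ± 0.06), had a median of 0.19. The 9 proteins that line or ring the exit tunnel for the new chain had a median of 0.12, with Rpl23a at 0.19 ± 0.05, Rpl17 at 0.19 ± 0.05 and Rpl39 at 0.06 ± 0.06. Near the entry and decoding of mRNA, Rps15 stood at 0.17 ± 0.05, Rps3 at 0.14 ± 0.05, Rps23 at 0.14 ± 0.05 and Rps2 at 0.07 ± 0.05, with a median of 0.14. The 21 members known as genes of Diamond-Blackfan anaemia, a human failure of red cell production, were all above 0, as all members were, with a median of 0.14. The 4 members on the X chromosome, Rpl10, Rpl36a, Rpl39 and Rps4x, had a median of 0.11.

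Levels are compared per kilobase of exon, as normalized counts divided by the length of all exons of the gene joined (GENCODE M21 on GRCm38). The members were among the most abundant transcripts in control islets. Their median was 3356 per kilobase, with quartiles of 1936 and 5553, beside 154 for all tested genes with a length, and 58 of the 77 were in the highest 5%. With this length, Rplp1, an acidic protein of the P stalk, was highest at 22294 ± 449 (SD, n = 2) per kilobase. It was followed by Rpl4, a tunnel protein, at 18419 ± 576, Rps3a1 of the 40S subunit at 14637 ± 561, Rplp0, the base of the P stalk, at 13782 ± 469, and Rps15 at 13300 ± 322. The ranges of mean ± SD overlapped for the neighbours Rplp0 and Rps15 and for Rps3a1 and Rplp0, whereas Rplp1 and Rpl4 each stood clear of the next. The genes were measured in the same libraries, and in each control library Rps3a1 was above Rplp0 and Rplp0 above Rps15. These differences were not tested.

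The lowest members per kilobase were Rps10, a 40S protein of the mRNA entry side, at 116 ± 2.49, Rpl24, which bridges the subunits, at 292 ± 26.3, and Rpl13a, which in human cells also takes part in translational silencing, at 399 ± 6.77. The next were Rps19, the gene most often mutated in Diamond-Blackfan anaemia, at 778 ± 2.97, and Rps28, another gene of that disease, at 847 ± 25.7. The highest level was 192 times the lowest with this length, and 85.4 times with the length of the principal transcript. In normalized counts Rps10 was 264.6 and 272.8 in controls and 281.0 and 304.9 in knockouts, and Rpl24 was 319.8 and 281.5 against 302.9 and 322.2. Rpl13a was 853.2 and 832.9 in controls and 887.8 and 916.7 in knockouts. These 3 genes kept the last 3 places whichever length was used, but the top of the order did not hold. With the principal transcript Rpl10 was first at 25860 ± 387 per kilobase (place 9 by all exons) and Rps27 next (place 12 by all exons). Rpl4 was then at place 3, Rplp1 at 4, Rplp0 at 10, Rps15 at 11 and Rps3a1 at 14, while Rps19 went from place 74 to 61.

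**Figure D3:**
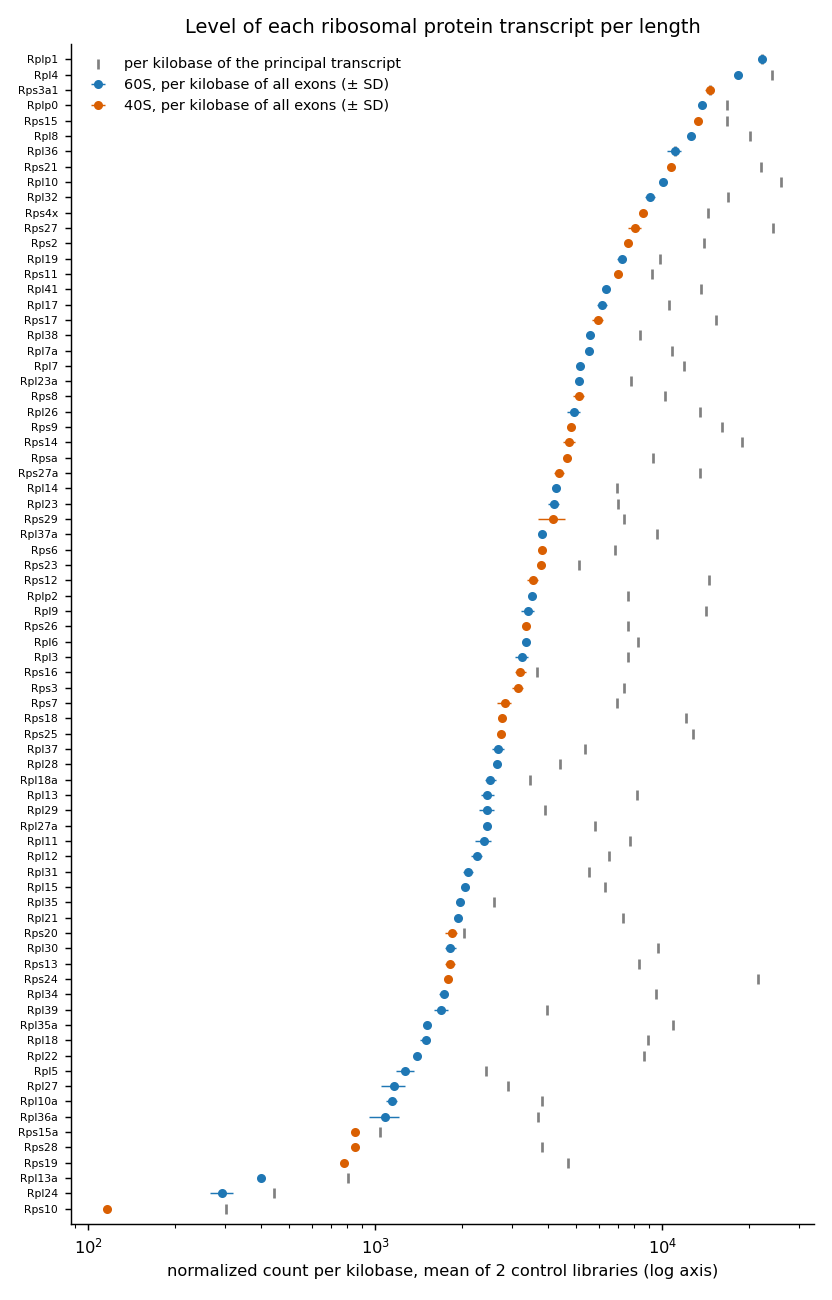
Points give each member's normalized count per kilobase of all exons in control islets (mean of 2 libraries, bars ± SD, log axis), and grey ticks the same count per kilobase of the principal transcript, with 1 member not shown. Levels run from 116 for Rps10 to 22294 for Rplp1 with all exons, the top of the order changes with the length, and Rps10, Rpl24 and Rpl13a stay lowest with either length.

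The 3 lowest members are also those with the largest shares of their principal transcript inside exons of another gene on the same strand. Of the principal transcript of Rps10, 53.6% lies in exons of RPS10-NUDT3, of Rpl24, 71.5% in exons of Gm28037, and of Rpl13a, 59.3% in exons of Gm45713, and each of these overlapping rows held 0 reads in every library. The only other member with 10% or more was Rpl19, with 10.7% inside Gm27597, at place 14 of the order. How reads in shared exons were assigned is not stated in the labels, and the part of this overlap in the levels was not tested.

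Ribosomal protein genes have many processed pseudogenes, copies of their mRNAs elsewhere in the genome. Of the 77 principal transcripts, 76 shared at least one 50-base window with an annotated transcript of another gene, and the median share of repeated windows was 56.8%. It was highest for Rps27, at 98.6%. Over the 77 members this share had a Spearman's rho of -0.06 with the level and of 0.08 with the fold change, given as a description of members that share libraries. The median log2 fold change was 0.13 for the 29 members below 50% and 0.12 for the 48 at or above it. It was 0.13 for the 5 members below 10%, and 0.14 for the 40 whose exons overlap no other gene. The table has 319 rows of ribosomal protein pseudogenes, of which 56 were tested. Their summed counts were 6124 and 6051 in controls and 6386 and 7127 in knockouts, 1.04% and 1.05% of the members' sum, and 41 of the 56 were above 0 with a median of 0.15 and 0 called. Among mitochondrial mRNAs, which also have nuclear copies, mt-Co1 was at 361825 to 376213 per library while mt-Co2 was at 4.16 to 7.67 (chosen after their values were seen), although both are known as abundant. The labels do not state whether reads that match several places were counted.

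The members are short genes, and fold change moved with length across the whole table. The median principal transcript was 761 bases and the median coding sequence 456, against 2793 and 1377 for tested protein-coding genes. Coding sequences ran from 75 bases for Rpl41 to 1257 for Rpl4. Among tested genes other than the members, the median log2 fold change went from 0.04 for genes with up to 1 kilobase of exons (1177 genes) to -0.03 above 8 kilobases (2616 genes). Among abundant protein-coding genes, with a mean of 1000 or more, it went from 0.05 (71 genes) to -0.05 (1677 genes). The members stood above these at each length, with medians of 0.14 (10 genes) up to 1 kilobase, 0.13 (32) from 1 to 2, 0.12 (29) from 2 to 4 and 0.12 (6) from 4 to 8. The part of length, and of the RNA quality it can follow, in the members' difference was not tested.

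**Figure D4:**
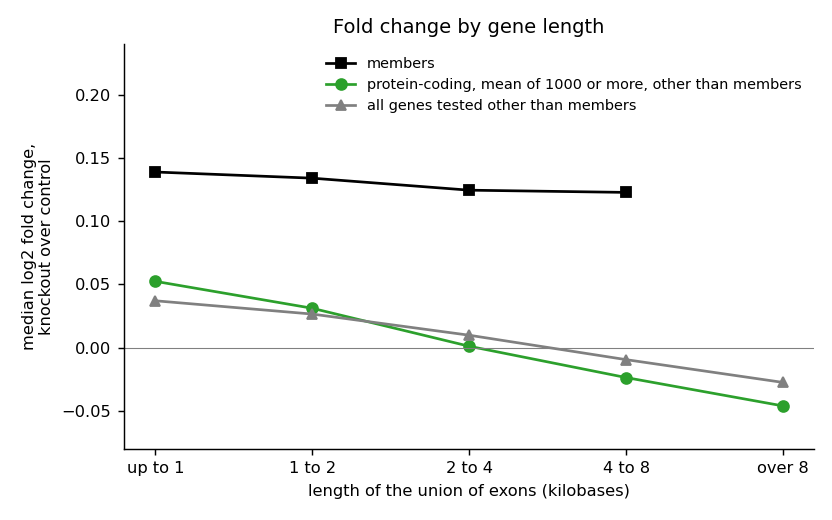
The x axis gives the length of all exons of a gene in 5 classes, and the y axis the median log2 fold change of the genes in each class. The grey and green lines fall from 0.04 and 0.05 to -0.03 and -0.05, and the members (black) lie above them, at 0.12 to 0.14 in their 4 classes.

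Ribosomal proteins and copies that the symbol rule leaves out went several ways. Rack1, the scaffold protein on the 40S head, was 15046 and 14820 in controls and 16024 and 16796 in knockouts, a log2 fold change of 0.14 ± 0.05 (limma adjusted p 0.246), close to the members' median. Fau, which encodes Rps30 fused to a ubiquitin-like protein, was 4261 and 3898 against 4089 and 4550, with overlapping groups (0.08 ± 0.07). Of 12 such genes 9 were tested, 5 were above 0 and 0 were called.

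Other genes of protein synthesis were described from lists, with no test of their difference from the ribosomal proteins. Of 18 translation factors with TOP mRNAs, 17 were above 0 and 0 were called, with a median log2 fold change of 0.05, and 7 of the 18 had the library order seen in 65 of the 77 ribosomal protein genes. Eef1a1, which brings transfer RNAs to the ribosome, was 138906 and 137549 in controls and 145057 and 152619 in knockouts (0.11 ± 0.06), and Eef2, the translocation factor, was 83816 and 84843 against 85748 and 88103 (0.04 ± 0.06). Of 28 initiation factors, 13 were above 0 and 0 were called (median -0.01), with Eif4g2 at 0.04 and Eif4a2 at 0.09.

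Most genes that assemble ribosomes had values below 0, and none passed the test. Of 35 genes of 60S assembly, 8 were above 0, and of 44 of 40S assembly, 7 were, with medians of -0.04 and -0.06. Gnl3l stood at -0.02 and Zfp622 at -0.13 in the first, and Riok3 at -0.02 and Tsr1 at -0.21 ± 0.06 (limma adjusted p 0.147) in the second. Of 9 box H/ACA and nucleolar genes, 3 were above 0 (median -0.07). Among them was nucleolin, Ncl, at 15870 and 16108 in controls and 14658 and 14795 in knockouts (-0.12 ± 0.05), with no overlap, and Nolc1 at -0.15. Of 20 genes of RNA polymerase I, which makes ribosomal RNA, 7 were above 0 (median -0.03), with Ubtf at 0.05 and Rrn3 at -0.04. None of these was called. Poly(A) selection leaves ribosomal RNA itself unmeasured.

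Regulators were mixed. Of 24 tested genes of mTORC1 and its translation effectors, 8 were above 0 (median -0.03), and 1 was called: Larp4, an RNA-binding protein of the La-related family, fell from 4673 and 4872 to 3696 and 3675 (-0.37 ± 0.05, limma adjusted p 0.0289; background 0.374% lower). Larp1, the family member named above for the TOP start, stood at -0.07 ± 0.05 and was not called. The MYC network holds MYC factors, which drive ribosomal genes, and factors that counter them, such as Mnt, Mga and the MXD proteins. Of its 12 genes, 6 were above 0 (median 0.01) with 0 called, and this median pools opposite roles. Its most abundant members, each of the countering kind, were Mxd4 at 0.05 and Mga at -0.17. The other countering genes were Mnt at -0.33 ± 0.09, Mxi1 at -0.24 ± 0.08, Mxd1 at -0.24 ± 0.09 and Mxd3, with low counts, at 0.10 ± 0.35. Of the MYC factors, Mycn and Mycl, both with low counts, stood at 0.68 ± 0.27 and 0.29 ± 0.27. These genes were added after their values were seen. Myc itself was 713.2 and 534.8 in controls and 872.2 and 953.1 in knockouts, with no overlap, but missed the threshold (0.56 ± 0.13, limma adjusted p 0.0857; chosen after its values were seen). Of 9 factors that bind promoters of ribosomal protein genes, 1 was above 0 (median -0.05), with Zbtb7a at -0.07 and Yy1 at -0.05.

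**Figure D5:**
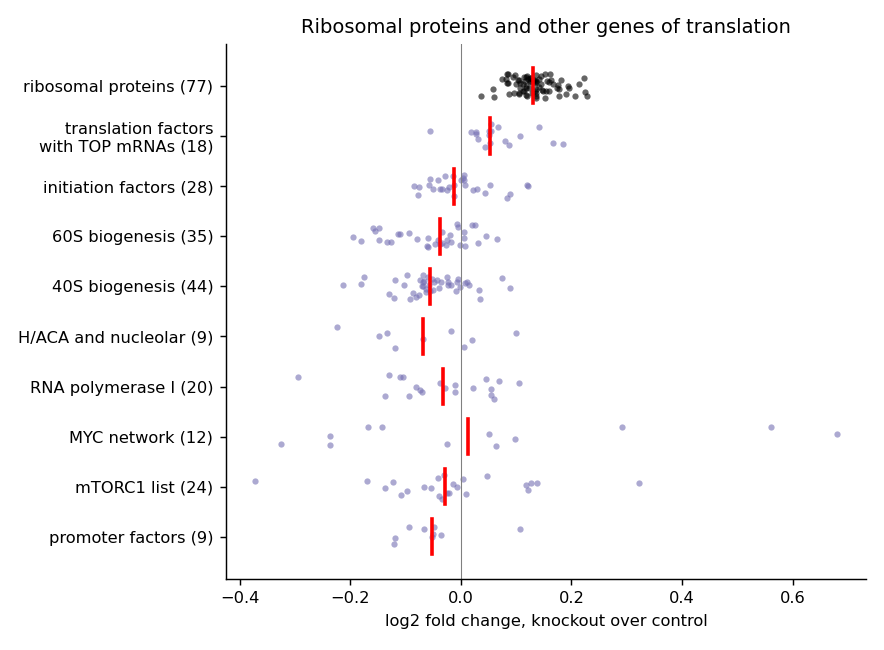
Each point is the log2 fold change of 1 tested gene, knockout over control, in the ribosomal proteins and 9 lists of other genes of translation, with red bars for medians and the number of genes in parentheses. The ribosomal proteins form a narrow block around 0.13, the TOP translation factors lie mostly above 0 around 0.05, and the 60S and 40S assembly genes have values mostly below 0, around -0.04 and -0.06.

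Markers of other cells differed between the same libraries. Acinar markers, of which 0 of 19 tested were above 0 and Try4 was called lower (-0.73 ± 0.09, limma adjusted p 0.0251; background 0.374% lower), had a median log2 fold change of -0.70 and summed to 20357 and 21628 in controls and 11022 and 16862 in knockouts. Stellate cell and fibroblast markers, with 14 of 15 above 0 and Dcn called higher (1.29 ± 0.21, limma adjusted p 0.0449; background 0.247% higher), had a median of 0.54 and summed to 14494 and 12540 against 15739 and 15077. Schwann cell markers were above 0 in 7 of 7 (median 0.58, sums of 691.7 and 694.6 against 806.6 and 876.4, 0 called). Endothelial markers were above 0 in 9 of 10 tested (median 0.06, sums of 35747 and 31451 against 33981 and 36074, 0 called). Duct markers had a median of 0.01 over 10 and macrophage and lymphocyte markers of -0.01 over 7. Mitochondrial mRNAs, taken as a sign of RNA quality, had a median of 0.03 over 8 and summed to 1109300 and 1140670 against 1159900 and 1120350. Of the islet genes, 10 of 15 were above 0, with a median of 0.10. No listed marker of any of these cell types was at 0 in all libraries. Among these lists of markers, only the sum of the islet genes stood in the same library order as most ribosomal proteins. It was 12686400 and 12339100 in controls and 13141000 and 13262000 in knockouts. Of single genes, only 2 of the 15 islet genes had this order, beside 2 of 10 endothelial and 1 of 10 duct markers. The calls of Try4, Dcn and Larp4 ended without the trend, where limma called 0 genes of the whole table, and with no filter, where it called 1 higher and 1 lower. The limma adjusted p of Dcn was also 0.0527 without control column 3, 0.0556 with a filter at 50 and 0.0709 with robust empirical Bayes. The part of these markers in the members' difference was not tested.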

How the data were processed

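Poly(A)-enriched RNA of 4 islet pools, 2 per genotype, was sequenced. The submitters' processing notes give GRCm38 as the build and list featureCounts 1.6.0, STAR 2.5.1b, CASAVA 1.4 and DESeq2 1.22.2, without roles. Not given in the sources used here are the annotation, the strand setting and the treatment of reads with several matches. The authors deposited 1 table that holds, for every gene in every library, a signal: its read count scaled to library size, per the file headers. Whole reads were recovered for 100% of values, within 0.01 of a read, which gave the depth, and 0 columns belonged to other samples. Beside these, the deposited table has the authors' log2 fold change, its standard error and a test statistic (a score), and for each gene a p-value before and after adjustment, used here only where the deposited table is named.

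The knockout columns were matched by name. The control columns carry 2 and 3 and were matched to the group only. The labels list each library as a separate pool of 2 mice, and replicates differed by more than sampling noise (chi-square over degrees of freedom 10.1 and 9.85 over genes).

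Genes with a value of 10 or more in at least 2 of 4 libraries were tested with limma 3.58.1 (R 4.3.3; lmFit, eBayes with a mean-variance trend) on log2(value + 1), two-sided, with Benjamini-Hochberg adjustment over 16589 genes. Adding 1 makes the change of low genes look smaller than it is. Count models were alternatives only: on the recovered reads, the quasi-likelihood test of edgeR 4.0.16 with TMM gave 57 calls higher and 71 lower. DESeq2 1.42.0 gave 120 and 208 among 12729 genes with an adjusted p. The steps were tested on simulated data in which single genes changed by more than the members did. No group of genes shared a shift there, so that check does not cover the members' small joint change. The smallest count of a member was 259 reads and the median member's lowest was 6615, a counting error of 1.23%, so the spread between pools sets the precision.

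Members and gene lists were chosen with earlier results of these data known. Named were members called, the 6 with the largest log2 fold change in each direction (none was below 0), the 5 highest and 5 lowest per length, members of role lists, and in each other list the called genes or the 2 most abundant. Some genes that this rule names, and 1 member, are not reported here by name. Lengths, exons and overlaps are from GENCODE M21, which holds 99.9% of tested genes. The principal transcript is the one its tags rank first. Each 50-base window of it was searched in the transcripts of all other genes.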

Additional observations from a re-analysis of the deposited data

How the results depend on the processing

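No paired analysis was possible because the control columns carry 2 and 3, which do not match the labels' numbers, so the genotypes share fewer than 2 replicate numbers. The members' median log2 fold change was 0.12 with a common total, 0.15 with a common upper quartile, 0.15 without Ins1, Ins2 and Gcg in the total, and 0.10 to 0.16 with 1 library left out. Without control column 3 it was 0.10 (75 of 77 above 0), without knockout replicate 2 also 0.10 (76 above 0), and without control column 2 or knockout replicate 1 it was 0.16. Members called ranged from 0 to 3 with 1 library left out and were 0 under every other alternative run. Of 465 repeated values of 31 named members, 459 kept direction and side of the threshold. Rpl24 reversed to -0.034 without control column 3, and Rpl29 to -0.024 without control column 3 and -0.029 without knockout replicate 2. The cause was not tested. In the other lists of translation genes, 0 were called higher and 1 lower (Larp4). DESeq2 gave 1 and 2, and leaving out 1 library gave 0 to 1 and 1 to 4. No filter on low values and limma without the trend gave 0 lower. Over all genes, 41 were called higher and 62 lower. The counts were 1 and 1 with no filter, 19 and 32 with a filter at 50, 0 and 0 without the trend, 85 and 124 with robust empirical Bayes, and 120 and 208 with DESeq2. They were 207 and 241 without control column 2, 58 and 49 without control column 3, 72 and 98 without knockout replicate 1, and 101 and 148 without knockout replicate 2. With a common upper quartile they were 57 and 55. A search for repeated windows in the genome was not run, since no genome was given. The search in transcripts, the principal transcript length, the members' common geometric mean and the total without insulin and glucagon were chosen after seeing the data. Depth did not limit the members, and the spread between 2 pools per genotype did.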

Other observations

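Many members share their locus with small nucleolar RNA genes, which guide modification of ribosomal RNA from within introns. In GENCODE M21, 58 such genes lie within 30 of the 77 members on the same strand. The 30 hosts had a median log2 fold change of 0.12 and the 47 other members of 0.13. The members are spread over 19 chromosomes, with 14 on chromosome 7. Among paralogs of ribosomal proteins, which can replace the common form in some tissues, Rps27l stood at 0.16 ± 0.06 and Rps4l at 0.20 ± 0.08, while Rpl22l1 stood at 0.00 ± 0.05, Rpl36al at -0.02 and Rpl7l1 at -0.07, with 0 called in limma (background 0.247% higher).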
